A study of Rattus norvegicus with 8 samples.

Results

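The mitosis genes followed here are 58 genes of mitotic entry, the spindle, the kinetochore, chromosome condensation and cytokinesis, listed by symbol for their role in cell division. They were read in cells of the oligodendrocyte lineage taken from rat brain at postnatal day 7 and sorted by flow cytometry. Of the 58, 51 were measured, among 14217 genes on the array; Ncapg, Ndc80, Anln, Tpx2, Nek2, Kif4a and Cdc25c were not matched to a probe set with a single gene symbol and are not analysed here. The A2B5+ population, labelled as progenitors, carries a ganglioside epitope of glial progenitors, and the GalC+ population, labelled as oligodendrocytes, carries galactocerebroside, a lipid of oligodendrocytes and myelin. Each population had 4 biological replicates, each from a pooled litter of 10 pups and hybridised to its own Affymetrix array. The strain and sex are not given in the sources used here, and no treatment or genetic change is named for either population. The sort was by surface marker from whole brain, so a population can hold any cell that carries the marker.

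Oligodendrocyte progenitors divide in the postnatal brain and leave the cell cycle when they differentiate into oligodendrocytes. A dividing cell enters mitosis when Cdk1 is switched on by A and B cyclins. It then builds a spindle, attaches chromosomes to it through kinetochores, holds back anaphase with a checkpoint until attachment is complete, and separates the daughter cells in cytokinesis. Transcripts of most of these proteins are made late in the cell cycle, from S phase into mitosis, and are kept low in cells that have left the cycle.

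Each deposited value is a probe set's signal divided by the median that probe set had on the 8 arrays. A ratio of 1 therefore lies between the populations for a gene that differs, ratios compare arrays within a gene, and levels cannot be compared between genes. Differences are log2 fold changes of GalC+ against A2B5+, so that a negative value is lower in GalC+. A gene changed when its adjusted p was under 0.05 (limma, Benjamini-Hochberg over all 14217 genes). Over all genes the SE had a median of 0.11 on the log2 scale, and the number of arrays limits the precision.

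Cell type markers were read first, as ratios, so whether a marker is absent from a population cannot be seen. The median log2 fold change of 12 measured myelin and oligodendrocyte markers was 3.97, and all 12 were higher in GalC+. Of 12 measured progenitor markers, 5 were lower in GalC+. Nxph1 (-2.35) and Dscam (-1.55) had the largest falls. Pdgfra, the receptor for platelet-derived growth factor, fell as well (-1.26 ± 0.23 SE, adjusted p = 0.00208). Cspg4 (0.01 ± 0.15 SE, adjusted p = 0.962) and Olig2 (0.04 ± 0.080 SE, adjusted p = 0.702) did not pass the test. Vcan did not pass either (0.67 ± 0.25 SE, adjusted p = 0.0583). It went the other way, with every GalC+ array above every A2B5+ array. Over all genes 17.5% were lower in GalC+ and 18.2% were higher. Markers of other cell types differed as well. Of 14 neuron markers 10 were lower in GalC+ and 1 was higher (median -1.79), of 10 markers of neural progenitors 8 were lower (median -1.14), of 13 macrophage markers 11 were higher (median 1.04) and of 13 mural cell and fibroblast markers 12 were higher (median 1.22). Of 9 astrocyte and 10 endothelial markers 0 passed in limma's test; at an unadjusted p under 0.05, 1 astrocyte marker was lower. On the arrays the median ratio of the neuron markers was between 1.32 and 1.58 in A2B5+ and between 0.301 and 0.688 in GalC+, and that of the neural progenitor markers between 1.195 and 1.579 in A2B5+ and between 0.539 and 0.742 in GalC+. The neuron and neural progenitor markers were lower in GalC+ as the mitosis genes below were, and their part in those results was not tested. Fewer dividing cells and less of a transcript in each cell cannot be told apart in RNA from pooled cells.

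Mitosis genes were lower in GalC+ in nearly every case. Of the 51 measured, 48 were lower, 0 were higher and 3 did not pass the test, whereas 17.5% of all genes were lower in GalC+ and 18.2% were higher. The median log2 fold change was -0.98, which is 1.98-fold lower, against 0.04 over all genes, and no measured mitosis gene had a positive value. For 48 of the 51 the lowest A2B5+ array lay above the highest GalC+ array, a pattern held by 17.7% of all genes. The 48 that were lower are also the 48 whose arrays did not overlap; Bub3, Cenpa and Plk4 neither passed nor separated.

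Most falls were close to 2-fold. Of the 48 genes, 21 fell at least 2-fold, against 2.65% of all genes, 25 fell between 1.5-fold and 2-fold, and Incenp and Ncaph fell less than 1.5-fold. The quartiles were -1.05 and -0.77 on the log2 scale, and the largest fall was that of Spc25 (-1.29). The 2494 genes that were lower in GalC+ had a median of -0.56 and quartiles of -0.81 and -0.40. These folds were read from each gene's probe set of largest variance. Averaging probe sets within each gene took some of the 21 under 2-fold. These were Ccnb1 (-0.92), Cdc20 (-0.85), Cenpt (-0.53), Kif23 (-0.54), Kif2c (-0.755), Nusap1 (-0.94) and Smc4 (-0.67). Racgap1 (-1.03) and Foxm1 (-1.02) stayed at least 2-fold lower.

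**Figure D1:**
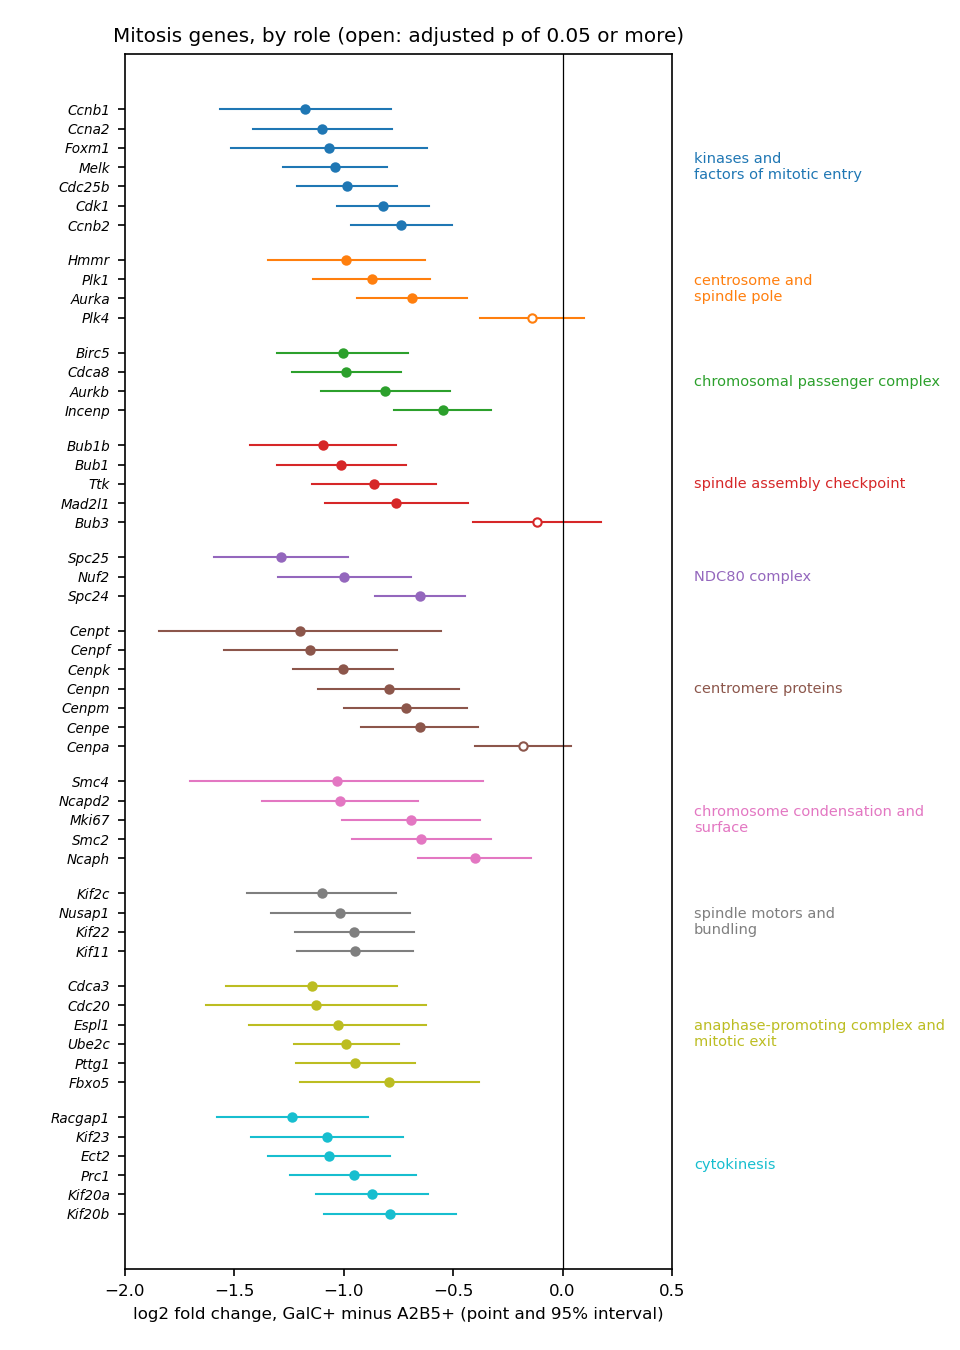
Log2 fold change (GalC+ minus A2B5+) with its 95% interval for each of the 51 measured mitosis genes, grouped by role and ordered by size; filled points passed the adjusted p of 0.05. All points lie below 0, 48 are filled, and Plk4, Bub3 and Cenpa are open with intervals that cross 0.

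The litters of a population differed in how high these genes were. The median ratio of the 51 genes was 1.31, 1.66, 1.18 and 1.30 in A2B5+ replicates 1 to 4 and 0.763, 0.666, 0.689 and 0.802 in GalC+ replicates 1 to 4. A2B5+ replicate 2 had the highest A2B5+ ratio for 48 of the 51 genes, and A2B5+ replicate 3 had the lowest for 36. Among all 2494 genes that were lower in GalC+, A2B5+ replicate 2 was the highest of its population for 64.5%, and among all genes for 29.4%. Markers of other cell types also stood apart on that array. Among the A2B5+ arrays it had the highest median ratio of the neural progenitor markers (1.579 against 1.195 to 1.411) and of the neuron markers (1.58 against 1.32 to 1.39). It had the lowest of the mural cell and fibroblast markers (0.447 against 0.687 to 0.751), the endothelial markers (0.540 against 0.967 to 1.19) and the astrocyte markers (0.844 against 1.02 to 1.16), while the macrophage markers (0.564) lay within the range of the other arrays (0.535 to 0.908). The oligodendrocyte markers were also lowest on that array (0.109 against 0.180 to 0.187). The oligodendrocyte progenitor markers (1.052) lay within the range of the other arrays (1.025 to 1.185). The part of these markers in the mitosis result was not tested. In GalC+, replicate 4 was the highest for 30 genes and replicate 1 for 15, whereas replicate 2 was the lowest for 26 and replicate 3 for 15. Median ratios of neuron markers in GalC+ replicates 1 to 4 were 0.554, 0.320, 0.301 and 0.688. Those of neural progenitor markers were 0.717, 0.539, 0.644 and 0.742, and those of oligodendrocyte markers 1.85, 2.98, 3.55 and 1.83. Macrophage markers (1.226, 1.536, 1.611 and 1.092) had the same order as the oligodendrocyte markers. Endothelial markers (1.103, 0.507, 0.708 and 1.035) were higher in replicates 1 and 4 than in 2 and 3, as the mitosis genes were. Oligodendrocyte progenitor, mural cell and astrocyte markers ordered the GalC+ arrays in other ways. The part of the markers here was not tested either. Without A2B5+ replicate 2, 46 of the 51 genes were lower and the median was -0.88.

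**Figure D2:**
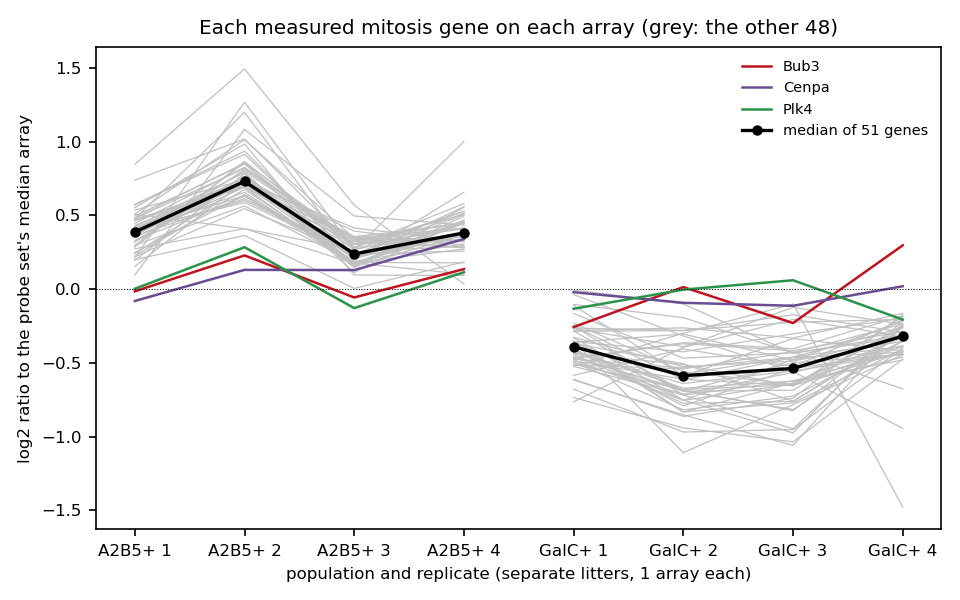
Log2 of the ratio to the probe set's median over the 8 arrays (y axis) on each array (x axis), with 1 line per gene; lines join the values of a gene and imply no order of the replicates. The median of the 51 genes (black) is above 0 on the 4 A2B5+ arrays, highest in replicate 2, and below 0 on the 4 GalC+ arrays, while Bub3, Cenpa and Plk4 overlap between the populations.

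Many promoters of mitotic genes are known to carry a cell cycle homology region (CHR), an element bound by the MuvB complex, which acts with DREAM proteins to silence the genes in cells out of cycle and with B-Myb and FoxM1 to raise them before mitosis. CCAAT boxes, bound by NF-Y, often lie upstream of the CHR. RefSeq promoter windows (GRCr8, 250 bases before to 50 after the annotated start) were found for 50 of the 58 genes. The CHR was searched as TTTGAA or TTTAAA, the CCAAT box as CCAAT, and an E2F-like site as TTCCCGC, each on both strands; TTTAAA reads the same on both strands, and no searched word contains another. Promoters of 7 members from different roles are given to show how the letters lie. They are the 110 bases before the start, 5′ to 3′ along the gene, with CHR and CCAAT letters on either strand in capitals.
Cdk1: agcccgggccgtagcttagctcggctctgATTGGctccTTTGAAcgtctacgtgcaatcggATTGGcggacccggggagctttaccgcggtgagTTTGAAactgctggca
Ccnb1: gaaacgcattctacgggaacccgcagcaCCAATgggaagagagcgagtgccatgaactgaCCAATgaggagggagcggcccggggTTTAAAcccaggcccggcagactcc
Cdc20: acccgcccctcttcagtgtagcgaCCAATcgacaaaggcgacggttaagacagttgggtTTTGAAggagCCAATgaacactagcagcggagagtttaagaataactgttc
Pttg1: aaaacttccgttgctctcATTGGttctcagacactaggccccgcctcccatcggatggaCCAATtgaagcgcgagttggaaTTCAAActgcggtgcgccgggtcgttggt
Prc1: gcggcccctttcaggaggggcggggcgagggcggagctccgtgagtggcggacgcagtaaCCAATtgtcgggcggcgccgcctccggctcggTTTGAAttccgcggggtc
Kif22: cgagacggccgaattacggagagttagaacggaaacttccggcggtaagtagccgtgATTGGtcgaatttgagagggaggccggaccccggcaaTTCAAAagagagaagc
Bub3: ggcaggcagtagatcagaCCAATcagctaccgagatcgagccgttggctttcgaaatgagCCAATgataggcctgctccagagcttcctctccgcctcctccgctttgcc

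These stretches are chr20:19265183-19265292 (plus strand) for Cdk1, chr2:33655226-33655335 (minus strand) for Ccnb1, chr5:137255800-137255909 (minus strand) for Cdc20, chr10:28406327-28406436 (minus strand) for Pttg1, chr1:143659371-143659480 (plus strand) for Prc1, chr1:191080879-191080988 (minus strand) for Kif22 and chr1:195760422-195760531 (plus strand) for Bub3. In Ccnb1, Pttg1, Prc1 and Kif22 a CCAAT box stands upstream of CHR letters that lie within 30 bases of the start. Cdk1 holds a pair of each, and Cdc20 has CHR letters between a pair of CCAAT boxes. The stretch of Bub3 is given as an example with a pair of CCAAT boxes and no CHR letters. Plk4 and Cenpa, which also did not pass, hold CHR letters in their windows, and Cdca3 and Melk, which fell, hold none.

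CHR letters stood in the window of 42 of the 50 mitosis genes (84.0%), against 27.6% of 19005 protein-coding genes and 20.8% of 11535 genes on the array with a promoter entry. Within 100 bases before to 50 after the start the shares were 80.0% and 12.6% of protein-coding genes. CCAAT letters stood in 76.0% of the mitosis genes and 39.8% of protein-coding genes, and both CHR and CCAAT letters in 62.0% and 11.6%. The E2F-like letters stood in 10.0% of the mitosis genes, 5.82% of protein-coding genes and 44.1% of 34 S phase genes, of which 14.7% held CHR letters. Of 56 other mitosis genes, 57.1% held CHR letters, 42.9% within the nearer window, and 21.4% held the E2F-like letters. Genes with and without CHR letters had similar medians: the 37 measured genes that held them had a median log2 fold change of -0.95 and the 7 that did not a median of -0.98. Those 7 were Bub3, Cdc25b, Cdca3, Cenpk, Cenpn, Melk and Spc24, of which 6 were lower in GalC+. A match of letters is a description of the sequence and not evidence of binding in these cells.

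**Figure D3:**
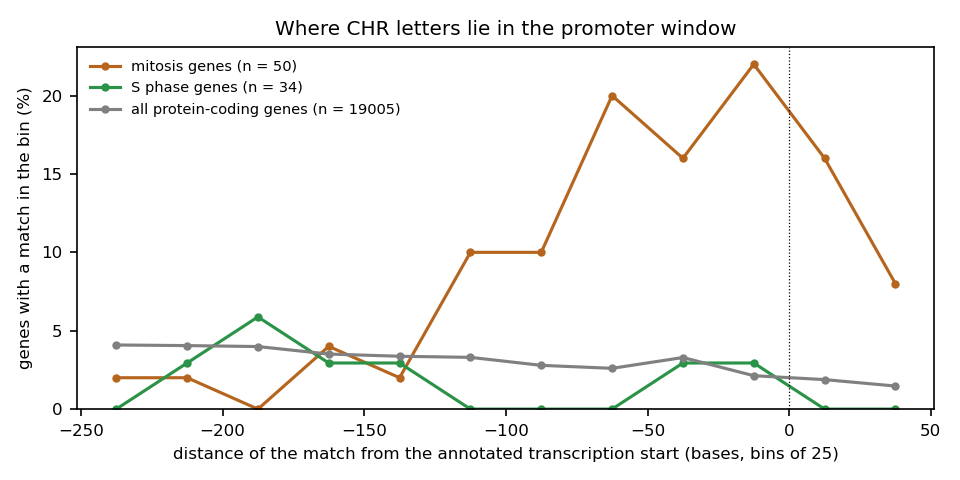
Percent of genes with CHR letters (TTTGAA or TTTAAA, either strand) in each bin of 25 bases (y axis) by distance from the annotated transcription start (x axis), for 50 mitosis genes, 34 S phase genes and 19005 protein-coding genes. The mitosis genes peak at 22% in the 25 bases before the start, where protein-coding genes stand at 2.13%.

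Genes of mitotic entry all fell. The group holds the kinase Cdk1, its A and B cyclins, the Cdc25 phosphatases that activate it, the transcription factor Foxm1 and the kinase Melk; all 7 measured members were lower (median -1.04). The ratios of Cdk1 in replicates 1 to 4 were 1.32, 1.503, 1.18 and 1.43 in A2B5+ and 0.724, 0.774, 0.749 and 0.820 in GalC+. The A2B5+ arrays were all above 1 and the GalC+ arrays all below it, and Cdk1 was 1.77-fold lower (log2 fold change -0.82 ± 0.094 SE, adjusted p = 2.05e-04). Ccnb1, the cyclin B whose destruction ends mitosis, had ratios of 1.49, 1.89, 1.16 and 1.47 in A2B5+ and 0.696, 0.608, 0.519 and 0.841 in GalC+. It had the largest fall of the group, 2.26-fold lower (log2 fold change -1.18 ± 0.17 SE, adjusted p = 7.66e-04). Its other probe set showed -0.67 ± 0.087 SE. Ccnb2, the other mitotic cyclin B measured, had the smallest fall, with ratios of 1.17, 1.46, 1.18 and 1.196 in A2B5+ and 0.763, 0.672, 0.727 and 0.835 in GalC+, and was 1.67-fold lower (log2 fold change -0.74 ± 0.10 SE, adjusted p = 5.86e-04). Its A2B5+ replicate 2 stood apart from the other 3 A2B5+ arrays, which lay between 1.165 and 1.196.

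Foxm1, a forkhead factor that drives transcription of G2 and mitotic genes, had ratios of 1.39, 2.30, 1.16 and 1.29 in A2B5+ and 0.842, 0.608, 0.650 and 0.746 in GalC+. A2B5+ replicate 2 was far above the rest, and the populations still did not overlap; Foxm1 was 2.10-fold lower (log2 fold change -1.07 ± 0.20 SE, adjusted p = 0.00265). Ccna2, the cyclin of S phase and early mitosis, fell by 1.10 on the log2 scale, Melk by 1.04 and Cdc25b by 0.98. Across these 3 genes the A2B5+ ratios ran from 1.22 to 2.03 and the GalC+ ratios from 0.624 to 0.782.

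At the centrosome and spindle pole, 3 of 4 measured genes fell. Plk1, the polo kinase that matures centrosomes and acts throughout mitosis, had ratios of 1.28, 1.53, 1.19 and 1.25 in A2B5+ and 0.775, 0.704, 0.591 and 0.810 in GalC+ and was 1.83-fold lower (log2 fold change -0.87 ± 0.12 SE, adjusted p = 5.35e-04). Hmmr, a spindle protein that binds hyaluronan outside the cell, had ratios of 1.28, 1.62, 1.11 and 1.29 in A2B5+ and 0.655, 0.550, 0.599 and 0.888 in GalC+ and the largest fall of the group, 1.98-fold lower (log2 fold change -0.99 ± 0.16 SE, adjusted p = 0.00125). Aurka, the kinase of spindle poles, fell by 0.69. Plk4, the kinase that starts the copying of centrioles, had ratios of 1.002, 1.22, 0.915 and 1.08 in A2B5+ and 0.912, 0.998, 1.04 and 0.867 in GalC+. Its populations overlapped, and its log2 fold change of -0.14 ± 0.11 SE (adjusted p = 0.340, 95% interval -0.38 to 0.10) missed the threshold.

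All 4 subunits of the chromosomal passenger complex, which corrects faulty attachments and later marks the site of cleavage, were lower (median -0.90). The kinase subunit Aurkb had ratios of 1.18, 1.64, 1.13 and 1.30 in A2B5+ and 0.667, 0.755, 0.695 and 0.867 in GalC+ and was 1.75-fold lower (log2 fold change -0.81 ± 0.13 SE, adjusted p = 0.00123). Birc5, also called survivin, had ratios of 1.39, 1.61, 1.22 and 1.28 in A2B5+ and 0.782, 0.620, 0.568 and 0.784 in GalC+ and was 2.01-fold lower (log2 fold change -1.004 ± 0.13 SE, adjusted p = 4.49e-04). The scaffold subunit Incenp had ratios of 1.23, 1.48, 1.13 and 1.13 in A2B5+ and 0.833, 0.824, 0.856 and 0.868 in GalC+, all GalC+ arrays within 0.824 to 0.868, and was 1.46-fold lower (log2 fold change -0.55 ± 0.098 SE, adjusted p = 0.00203). Cdca8, or borealin, fell by 0.99. Incenp had the smallest fall of the complex, and its other 2 probe sets showed -0.14 and -0.24 and did not pass (adjusted p over all probe sets of 0.286 and 0.0946).

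Of 5 spindle assembly checkpoint genes 4 fell. Bub1, a kinase that recruits checkpoint proteins to kinetochores, had ratios of 1.25, 1.75, 1.25 and 1.33 in A2B5+ and 0.753, 0.578, 0.689 and 0.740 in GalC+ and was 2.01-fold lower (log2 fold change -1.01 ± 0.13 SE, adjusted p = 4.06e-04). Bub1b, which encodes BubR1 of the mitotic checkpoint complex, had ratios of 1.42, 2.02, 1.27 and 1.25 in A2B5+ and 0.750, 0.628, 0.649 and 0.717 in GalC+ and was 2.14-fold lower (log2 fold change -1.09 ± 0.15 SE, adjusted p = 5.24e-04). The kinase Ttk, or Mps1, fell by 0.86 and Mad2l1, which inhibits Cdc20, by 0.76. Bub3, the partner that Bub1 and BubR1 both bind, had ratios of 0.990, 1.17, 0.962 and 1.10 in A2B5+ and 0.837, 1.01, 0.853 and 1.23 in GalC+. GalC+ replicate 4 was the highest of all 8 arrays, the populations overlapped, and the difference of -0.12 ± 0.13 SE (adjusted p = 0.517, 95% interval -0.41 to 0.18) missed the threshold. The other probe set of Bub3 did pass (-0.34 ± 0.071, adjusted p over all probe sets = 0.00625), as did the mean of both (-0.23, adjusted p = 0.0494), so that the call for Bub3 rests on the probe set.

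The NDC80 complex links kinetochores to microtubules, and its 3 measured subunits fell. Spc25 had ratios of 1.33, 1.68, 1.28 and 1.36 in A2B5+ and 0.601, 0.521, 0.488 and 0.720 in GalC+ and the largest fall of all 51 genes, 2.44-fold lower (log2 fold change -1.29 ± 0.14 SE, adjusted p = 1.38e-04). Spc24, its partner at the kinetochore end of the complex, had ratios of 1.21, 1.33, 1.13 and 1.38 in A2B5+ and 0.782, 0.745, 0.811 and 0.872 in GalC+ and was 1.57-fold lower (log2 fold change -0.65 ± 0.092 SE, adjusted p = 6.14e-04). Nuf2, at the microtubule end, fell by 0.998. No GalC+ array was above 0.872 for any of the 3 subunits.

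Of 7 centromere proteins 6 were lower. Cenpf (log2 fold change -1.15), Cenpk (-1.003), Cenpn (-0.80), Cenpm (-0.72) and the kinesin Cenpe (-0.65) fell. Cenpa, the histone H3 variant that marks centromeres, had ratios of 0.946, 1.09, 1.09 and 1.27 in A2B5+ and 0.986, 0.938, 0.925 and 1.01 in GalC+. The populations overlapped and the difference did not pass (-0.18 ± 0.098 SE, adjusted p = 0.179, 95% interval -0.40 to 0.04). Cenpt, which connects centromeric chromatin to the NDC80 complex, had ratios of 1.80, 2.82, 1.48 and 1.02 in A2B5+ and 0.975, 0.803, 0.679 and 0.520 in GalC+ and was 2.30-fold lower (log2 fold change -1.2 ± 0.29 SE, adjusted p = 0.00953). Its pattern was unlike that of the others: A2B5+ replicate 4, at 1.02, lay near GalC+ replicate 1, at 0.975, and its other probe set showed 0.13 ± 0.13 SE (adjusted p over all probe sets = 0.473). The mean of both probe sets of Cenpt was -0.53 (adjusted p = 0.0314).

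Condensin and chromosome surface genes fell. All 5 measured were lower, and their median of -0.69 was the nearest to 0 of the 10 roles. Mki67, which encodes the proliferation antigen Ki-67 of the mitotic chromosome surface, had ratios of 1.31, 1.58, 1.13 and 1.07 in A2B5+ and 0.927, 0.666, 0.793 and 0.748 in GalC+ and was 1.62-fold lower (log2 fold change -0.69 ± 0.14 SE, adjusted p = 0.00402). Smc4, a core subunit of condensin, had ratios of 1.47, 1.98, 1.07 and 1.07 in A2B5+ and 0.696, 0.813, 0.933 and 0.359 in GalC+ and was 2.04-fold lower (log2 fold change -1.03 ± 0.30 SE, adjusted p = 0.0227). GalC+ replicate 4 was the lowest by far, A2B5+ replicates 3 and 4 were close to GalC+ replicate 3, and the call was lost without A2B5+ replicate 1 (adjusted p = 0.0549) or replicate 2 (0.0652) and with quantile normalization (0.0582). Ncaph had ratios of 1.15, 1.29, 1.004 and 1.14 in A2B5+ and 0.996, 0.933, 0.740 and 0.806 in GalC+ and the smallest fall of the group, 1.32-fold lower (log2 fold change -0.40 ± 0.12 SE, adjusted p = 0.0226); A2B5+ replicate 3 and GalC+ replicate 1 nearly met. Its call was lost when any 1 of 5 arrays was left out, A2B5+ replicates 1, 2 and 4 and GalC+ replicates 3 and 4 (adjusted p between 0.0514 and 0.0634). Ncapd2 fell by 1.01 and Smc2 by 0.65. The other probe set of Smc4 showed a smaller fall (-0.31 ± 0.10 SE, adjusted p over all probe sets = 0.0472).

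Spindle motors and bundling proteins had the narrowest range of the 10 roles, with all 4 measured members between -1.10 and -0.95. Kif11, the kinesin that pushes spindle poles apart, had ratios of 1.33, 1.64, 1.24 and 1.27 in A2B5+ and 0.755, 0.593, 0.719 and 0.763 in GalC+ and was 1.93-fold lower (log2 fold change -0.95 ± 0.12 SE, adjusted p = 3.24e-04). Kif2c, which takes microtubules apart at centromeres, had ratios of 1.22, 1.82, 1.22 and 1.495 in A2B5+ and 0.710, 0.567, 0.605 and 0.784 in GalC+ and was 2.14-fold lower (log2 fold change -1.10 ± 0.15 SE, adjusted p = 5.58e-04). The populations were well separated for both, with A2B5+ replicate 2 on top. The other probe set showed -0.55 for Kif11 and -0.41 for Kif2c, so the narrow range holds for the probe sets used. Kif22, a motor that moves along chromosome arms, fell by 0.95 and Nusap1, a microtubule bundler, by 1.01.

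Genes of anaphase and mitotic exit all fell (6 of 6, median -1.01). Cdc20, which activates the anaphase-promoting complex (APC/C), had ratios of 1.16, 2.41, 1.202 and 2.00 in A2B5+ and 0.841, 0.653, 0.725 and 0.744 in GalC+; A2B5+ replicates 2 and 4 were high and replicates 1 and 3 were closer to 1. It was 2.18-fold lower (log2 fold change -1.13 ± 0.23 SE, adjusted p = 0.00366). Its other probe sets showed -0.98, -0.93, -0.999 and -0.20. Pttg1, or securin, which restrains separase until the APC/C destroys it, had ratios of 1.42, 1.33, 1.203 and 1.36 in A2B5+ and 0.777, 0.561, 0.644 and 0.797 in GalC+ and was 1.93-fold lower (log2 fold change -0.95 ± 0.12 SE, adjusted p = 3.75e-04). It was the single gene for which A2B5+ replicate 1 was the highest array. Cdca3, a trigger of mitotic entry that the APC/C removes later, had ratios of 1.35, 1.66, 1.15 and 1.37 in A2B5+ and 0.653, 0.554, 0.480 and 0.848 in GalC+ and the largest fall, 2.21-fold lower (log2 fold change -1.15 ± 0.17 SE, adjusted p = 8.71e-04).

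Fbxo5, or Emi1, an inhibitor of the APC/C, had ratios of 1.07, 2.12, 1.41 and 1.35 in A2B5+ and 0.931, 0.875, 0.741 and 0.796 in GalC+ and the smallest fall of this group, 1.73-fold lower (log2 fold change -0.79 ± 0.18 SE, adjusted p = 0.00771). Espl1, or separase, fell by 1.03 and Ube2c, the ubiquitin-conjugating enzyme of the APC/C, by 0.99. The activator Cdc20, the inhibitor Fbxo5, the enzyme Ube2c and the substrates Pttg1 and Cdca3 were thus all lower.

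Cytokinesis genes were lower in 6 of 6 cases, with a median of -1.01. Racgap1, a subunit of centralspindlin, had ratios of 1.36, 1.77, 1.24 and 1.29 in A2B5+ and 0.625, 0.511, 0.517 and 0.759 in GalC+ and was 2.35-fold lower (log2 fold change -1.24 ± 0.15 SE, adjusted p = 3.25e-04). Kif20b, a kinesin of late cytokinesis, had ratios of 1.34, 1.73, 1.11 and 1.41 in A2B5+ and 0.892, 0.723, 0.742 and 0.849 in GalC+ and the smallest fall, 1.73-fold lower (log2 fold change -0.79 ± 0.14 SE, adjusted p = 0.00166). Kif23, the kinesin of centralspindlin (-1.08), Ect2, which activates RhoA at the cleavage furrow (-1.07), Prc1, which bundles the central spindle (-0.95), and Kif20a (-0.87) lay between. A further probe set of Kif23 showed 0.00 ± 0.13 SE (adjusted p over all probe sets = 0.987).

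Genes with several probe sets were compared across them. The probe set of largest variance over the arrays stood for a gene, and except for Bub3 it was also the one with the larger difference. For 15 mitosis genes there were 35 probe sets in all. Of the 20 not used, 15 were lower in GalC+ and 0 were higher. All probe sets were lower for 10 of the 15 genes; the exceptions were Bub3, Cenpt, Incenp, Kif23 and Ttk, whose other probe set showed -0.41 ± 0.15 SE (adjusted p over all probe sets = 0.0693). When a gene's probe sets were averaged 49 of 51 genes were lower, and when the probe set of smallest variance was read 45.

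**Figure D4:**
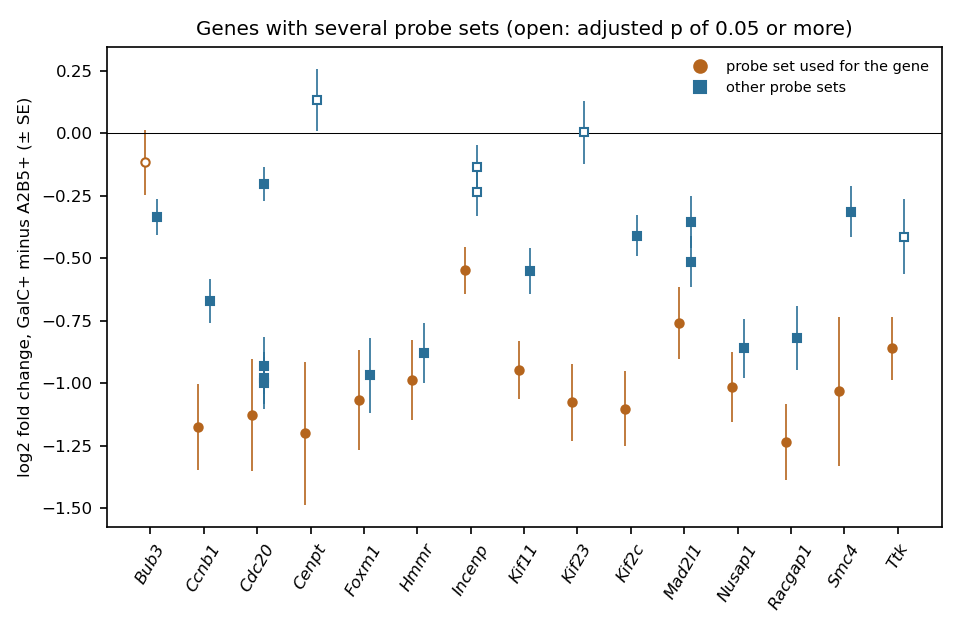
Log2 fold change (GalC+ minus A2B5+, ± SE) of each probe set of the 15 mitosis genes that have several; circles are the probe set used for the gene, squares the others, and open symbols did not pass an adjusted p of 0.05. For Cenpt and Kif23 the other probe set lies at 0.13 and 0.00, and for Bub3 the other probe set passed.

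Relatives within a family or complex were set against each other as the per-array difference of their log2 ratios, in 7 pairs with both members measured (exact permutation test, two-sided over 70 splits, smallest possible p = 0.0286, adjusted over the 7 pairs). Of the 7 pairs 0 passed after adjustment and 2 had an unadjusted p under 0.05. With that smallest p, a pair could pass only if most of the 7 reached it together. The lack of a pass therefore does not show that relatives fell alike. The pairs were chosen with earlier results of these data known. Those with Bub3, Plk4 and Cenpa set a gene that did not pass against a relative that fell. Their p values are not free of that choice. The difference between Bub1b and Bub3 was -0.98 ± 0.19 SE (exact p = 0.0286, adjusted p = 0.10), with all 4 GalC+ arrays below all 4 A2B5+ arrays, and that between Plk1 and Plk4 was -0.73 ± 0.16 SE (exact p = 0.0286, adjusted p = 0.10), with the same separation. Ccnb1 against Ccnb2 gave -0.44 ± 0.14 SE (exact p = 0.0571, adjusted p = 0.120), Cenpa against Cenpt 1.02 ± 0.41 (exact p = 0.0857, adjusted p = 0.120) and Aurka against Aurkb 0.12 ± 0.056 (exact p = 0.0857, adjusted p = 0.120). Smc2 against Smc4 (0.39 ± 0.35, exact p = 0.371, adjusted p = 0.371) and Kif20a against Kif20b (-0.083 ± 0.066, exact p = 0.286, adjusted p = 0.333) differed least relative to their error.

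Other genes of cell division were read from lists that were chosen with earlier results of these data known. Of 56 further genes of the kinetochore, spindle, mitosis and cytokinesis, 48 were lower (85.7%, against 17.5% of all genes) and 0 were higher, with a median of -0.73 and no positive log2 fold change. Cdca7, whose symbol stands for cell division cycle associated, had ratios of 1.42, 1.94, 1.33 and 1.46 in A2B5+ and 0.572, 0.400, 0.353 and 0.671 in GalC+. It was 3.15-fold lower (log2 fold change -1.66 ± 0.20 SE, adjusted p = 3.12e-04). These data do not show in which part of the cell cycle Cdca7 acts. Aspm, a spindle pole protein, had ratios of 1.56, 1.98, 1.28 and 1.42 in A2B5+ and 0.724, 0.435, 0.561 and 0.658 in GalC+. Aspm was 2.64-fold lower (log2 fold change -1.40 ± 0.18 SE, adjusted p = 3.47e-04). Mis12, Pmf1, Zw10, Mad1l1, Sgo2, Cdca5, Ncapg2 and Sass6 did not pass.

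Of 38 S phase genes 32 were lower (84.2%, against 17.5% of all genes) and 0 higher, with a median of -0.63 and no positive log2 fold change. A2B5+ replicate 2 was the highest A2B5+ array for 36 of the 38. Uhrf1, which keeps DNA methylation through replication, had ratios of 1.37, 1.95, 1.05 and 1.82 in A2B5+ and 0.603, 0.556, 0.463 and 0.947 in GalC+ and was 2.43-fold lower (log2 fold change -1.28 ± 0.24 SE, adjusted p = 0.00280). The helicase cofactor Cdc45 had ratios of 1.26, 1.61, 1.15 and 1.45 in A2B5+ and 0.673, 0.587, 0.482 and 0.847 in GalC+ and was 2.14-fold lower (log2 fold change -1.10 ± 0.17 SE, adjusted p = 9.70e-04). The probe set of smallest variance for Cdc45 showed 0.073 and did not pass. The S phase list and the mitosis genes were not tested against each other.

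The core of the APC/C and cohesin, which are also present outside division, were not tested against the mitosis genes. Of 15 APC/C subunits and activators 3 were lower (20%, near the 17.5% of all genes) and 0 higher (0 at an unadjusted p under 0.05 as well), with a median of -0.10. The subunit Anapc4 had ratios of 1.14, 1.22, 1.11 and 1.44 in A2B5+ and 0.887, 0.621, 0.725 and 0.645 in GalC+ and was 1.72-fold lower (log2 fold change -0.78 ± 0.13 SE, adjusted p = 0.00143). The activator Fzr1 had ratios of 1.26, 1.37, 1.04 and 1.21 in A2B5+ and 0.873, 0.876, 0.884 and 0.957 in GalC+ and was 1.36-fold lower (log2 fold change -0.44 ± 0.096 SE, adjusted p = 0.00577). The call for Fzr1 rests on the probe set: that of smallest variance showed -0.009 (adjusted p = 0.965), and the mean of its probe sets -0.26 (adjusted p = 0.0245). Anapc2, named after its value was seen, also fell (-0.25).

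Of 11 genes of cohesin and its regulators 5 were lower (45.5%, against 17.5% of all genes). In the other direction 1 was higher, against 18.2% of all genes, and the median was -0.31. Esco2, which acetylates cohesin in S phase, had ratios of 1.43, 2.67, 1.18 and 1.29 in A2B5+ and 0.686, 0.545, 0.523 and 0.822 in GalC+ and was 2.45-fold lower (log2 fold change -1.29 ± 0.25 SE, adjusted p = 0.00302). The cohesin subunit Smc1a had ratios of 1.06, 1.28, 1.198 and 1.13 in A2B5+ and 0.885, 0.898, 0.939 and 0.752 in GalC+ and was 1.34-fold lower (log2 fold change -0.43 ± 0.097 SE, adjusted p = 0.00729). Both were lower in GalC+ with A2B5+ replicate 2 the highest array. Wapl, which releases cohesin from chromatin, had ratios of 0.732, 0.816, 1.003 and 0.848 in A2B5+ and 1.01, 1.23, 1.44 and 0.997 in GalC+, with the populations overlapping, and was higher in GalC+ (0.45 ± 0.14 SE, adjusted p = 0.0294). That call was lost when any 1 of 5 arrays was left out, A2B5+ replicates 1, 2 and 4 and GalC+ replicates 2 and 3 (0.35 to 0.46, adjusted p between 0.0628 and 0.0834), with the mean of its probe sets (0.21, adjusted p = 0.0705) and with the probe set of smallest variance (0.05, adjusted p = 0.744).

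**Figure D5:**
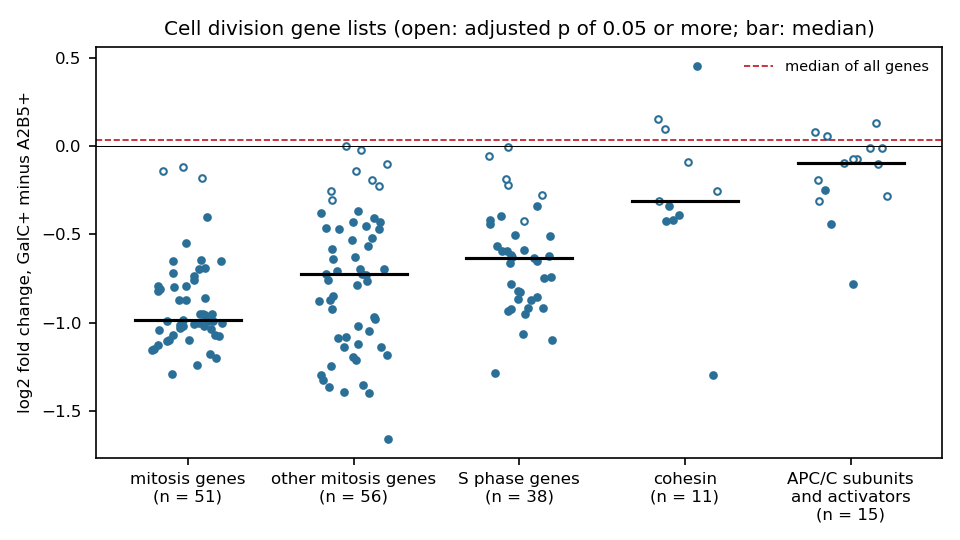
Log2 fold change (GalC+ minus A2B5+) of each gene in 5 lists of cell division genes, with the list's median as a bar and the median of all genes (0.04) as a dashed line; filled points passed an adjusted p of 0.05. The mitosis genes lie lowest by median (-0.98), followed by other mitosis genes (-0.73), S phase genes (-0.63), cohesin (-0.31) and the APC/C (-0.10).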

How the data were processed

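Per the labels, total RNA was extracted with an RNeasy kit, labelled with biotin by an Affymetrix protocol for small samples and read in 1 colour, and RMA gave the signals, per the submitters' processing notes, which name no version. Each deposited value is a ratio, on a linear scale, of a signal to the median that its probe set had on the 8 arrays. This was seen in the values, since every row has a median within 0.0005 of 1, and is not stated. The division keeps folds between arrays and removes levels, so dim probe sets could not be set aside. No further normalization and no pseudocount was applied before log2 was taken. All value columns belonged to samples of the series.

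Of 31042 probe sets (57 Affymetrix controls left out), 20826 had 1 gene symbol in the platform annotation, 436 several and 9780 none; those with 1 symbol gave 14217 genes. A gene was read from its probe set of largest variance. GalC+ was compared with A2B5+ by limma 3.58.1 in R 4.3.3 (lmFit, eBayes, two-sided, Benjamini-Hochberg). Replicates of a population are separate litters. Same-numbered arrays deviated together for replicates 1, 3 and 4 (correlations of 0.473, 0.337 and 0.207). The correlation for replicate 2 (0.116) lay within the range of different-numbered arrays, -0.256 to 0.125. A fit with the replicate number as a block was therefore run beside the main fit. Whether same-numbered arrays share a litter is not stated in the labels. The fit was tested on simulated data. No scan date or batch is given. The genes, lists, pairs and promoter letters were chosen with earlier results of these data known. Named with values on every array were genes fixed by role, the largest and smallest difference of each role, every gene that did not pass, and up to 2 falls and 2 rises of each further list.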

Additional observations from a re-analysis of the deposited data

Results flagged for a closer look

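The log2 ratios of a gene on the 4 arrays of each population were checked for an array that stood apart. A gene was marked when its highest or lowest array was too far from the nearest other. The limit was the share of the population's range that Dixon's 95% critical value allows. Of 104 such sets of 4 values (51 mitosis genes and their median, in 2 populations) 2 were marked, where chance marks about 1 in 20. Ccnb2 had a ratio of 1.46 in A2B5+ replicate 2, against 1.165 to 1.196 on the other A2B5+ arrays. Cenpe had a ratio of 0.887 in GalC+ replicate 3, against 0.817 to 0.823 on the other GalC+ arrays.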

How the results depend on the processing

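The count of 48 lower mitosis genes lay between 43 (limma's treat against a fold of 1.2) and 49 (mean of a gene's probe sets) over 10 other settings and between 46 and 48 when each array was left out; 0 genes were higher in any of them. The median log2 fold change ranged from -1.03 to -0.88 without 1 array, where Smc4 and Ncaph were the genes whose calls were lost. The choice of probe set made the fall smaller. Averaging probe sets within each gene gave a median of -0.87, and reading those of smallest variance gave -0.82. Median centring gave the largest fall of the other settings (-1.01). With the replicate block the count was 48 and no call of a mitosis gene changed; in the further lists it gave 49 other mitosis genes, 33 S phase genes, 6 cohesin genes and 4 APC/C genes lower. Read from the probe set of smallest variance, Cenpt (0.13), Kif23 (0.003) and Cdc45 (0.073) turned sign, and none of these passed; Fzr1 (-0.009) and Wapl (0.047) lost their calls there. At an adjusted p under 0.01 the cohesin list had 3 lower genes, and with treat it had 1, as did the APC/C list, where the threshold itself is stricter. Without 1 array, the other mitosis genes had 44 to 48 lower, the S phase genes 29 to 34, cohesin 5 and the APC/C 2 to 3. No pair of relatives passed in any setting, and the smallest possible p left little room for a pass. The sign-flip test over same-numbered arrays, with a smallest p of 0.125, could not pass. Signal over background is not known for these ratios, and a probe set near background understates a fold.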
